A study of Homo sapiens with 9 samples.

Results

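Nucleotide synthesis enzymes make the building blocks of RNA and DNA. The 9 enzymes described here were TYMS, RRM1, RRM2, TK1 and DUT, which supply deoxynucleotides (the deoxynucleotide arm), and CAD, UMPS, PPAT and PAICS, which build purine and pyrimidine rings from small precursors (the de novo arm). The members were taken by gene name from a list drawn up with earlier results of these data known. All 9 were listed among the 61552 genes of the deposited files, and all 9 were among the 16570 genes with enough reads to be tested. RNA was sequenced from MDA-MB-231, an established human triple-negative breast cancer (TNBC) cell line, after 24 h with 2-deoxy-D-glucose (2-DG) at 0 mM (the control, given phosphate-buffered saline), 10 mM or 20 mM. Each group had 3 libraries. All groups were grown in DMEM with 10% serum. 2-DG is a glucose analogue that cells take up and phosphorylate but cannot carry through glycolysis. The comparison asks how gene expression in these cells responds to 2-DG. It cannot tell a block of glycolysis apart from other effects of the drug. The lactate-treated cells of the study are not analysed here.

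Dividing cells need deoxynucleotides mainly while they copy their DNA. Ribonucleotide reductase, built from the large catalytic subunit RRM1 and the small radical-bearing subunit RRM2, turns ribonucleotides into deoxynucleotides. TYMS (thymidylate synthase) methylates dUMP to dTMP with a folate as the carbon donor, TK1 (cytosolic thymidine kinase) reaches the same product by phosphorylating thymidine, and DUT removes dUTP and leaves dUMP for TYMS. The de novo pathways run upstream and also feed RNA synthesis. CAD carries out the opening steps of pyrimidine synthesis and UMPS the closing steps to UMP, while PPAT commits a ribose phosphate to purine synthesis and PAICS acts in the middle of that pathway. In growing tissues the transcripts of TYMS, RRM1, RRM2 and TK1 are known to be most abundant in cells that replicate DNA.

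In the GENCODE 29 annotation of GRCh38, the 9 members lie on 7 chromosomes. RRM2 (chr2:10120698-10131419, plus strand) and CAD (chr2:27217390-27243943, plus strand) share chromosome 2, and PPAT (chr4:56393362-56435615, minus strand) and PAICS (chr4:56435741-56464579, plus strand) are neighbours on chromosome 4, transcribed away from each other. TYMS lies at chr18:657604-673578 (plus strand), RRM1 at chr11:4094707-4138876 (plus strand), TK1 at chr17:78174075-78187233 (minus strand), DUT at chr15:48331011-48343373 (plus strand) and UMPS at chr3:124730366-124749273 (plus strand). Because members of the deoxynucleotide arm moved together, the bases before the gene start are shown for RRM2, which fell most, for TYMS, and for CAD, which did not pass the test. The sequences are 250 bases that end just before the RefSeq gene start, from GRCh38.p14, written 5′ to 3′ on the gene's strand. Capitals mark CCAAT in RRM2, the reverse complement of the E2F word TTTCCCGC in TYMS, and the reverse complement of CCAAT in CAD. The windows are chr2:10122489-10122738 (RRM2), chr18:657403-657652 (TYMS) and chr2:27217119-27217368 (CAD).
RRM2: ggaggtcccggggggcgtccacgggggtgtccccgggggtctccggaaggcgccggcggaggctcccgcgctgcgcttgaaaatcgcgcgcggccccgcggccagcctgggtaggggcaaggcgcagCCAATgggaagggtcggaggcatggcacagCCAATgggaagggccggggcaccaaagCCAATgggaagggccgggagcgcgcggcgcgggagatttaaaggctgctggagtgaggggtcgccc
TYMS: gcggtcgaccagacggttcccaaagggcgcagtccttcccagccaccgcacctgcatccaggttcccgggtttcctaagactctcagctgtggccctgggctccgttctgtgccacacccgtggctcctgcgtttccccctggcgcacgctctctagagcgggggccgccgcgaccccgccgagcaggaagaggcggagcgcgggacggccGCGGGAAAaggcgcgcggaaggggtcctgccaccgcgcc
CAD: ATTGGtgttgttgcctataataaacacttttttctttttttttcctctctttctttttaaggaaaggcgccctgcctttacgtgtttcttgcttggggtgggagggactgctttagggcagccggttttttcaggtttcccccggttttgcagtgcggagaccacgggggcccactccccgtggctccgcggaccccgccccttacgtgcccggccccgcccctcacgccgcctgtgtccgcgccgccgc
The region between the gene starts of PPAT and PAICS, 125 bases at chr4:56435616-56435740, is shown on the PPAT strand because one short stretch of DNA precedes both genes and their transcripts can be compared directly.
PPAT to PAICS: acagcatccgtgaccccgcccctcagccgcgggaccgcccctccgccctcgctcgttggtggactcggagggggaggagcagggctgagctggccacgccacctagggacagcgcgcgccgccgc

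Motif words were searched on both strands of the 300 bases around the RefSeq gene start (250 before and 50 after) of the 9 members and of 35116 promoters in all. CCAAT, a binding word of the factor NF-Y, was in RRM2 at -123, -93 and -66 from the gene start, in RRM1 at -28 and in CAD at -250, and 34.6% of all promoters held it. The E2F words TTTGGCGC, TTTCCCGC, TTTCGCGC and TTTGCCGC were in 1 of the 5 deoxynucleotide promoters (TYMS, at -39), in 0 of the 4 de novo promoters and in 3.31% of all promoters. The cell cycle word TTTGAA was in RRM1 at -199 and in UMPS at -207 and -7, and in 15.2% of all promoters. The E-box CACGTG was in PPAT at -182 and in 7.26% of all promoters, and TGATGCAA, TGATGAAA, TGATGGAA and TGATGTAA, forms of a word bound by ATF4, were in 0 of the 9 and in 3.62%. TK1 and DUT of the deoxynucleotide arm and PAICS of the de novo arm held none of these words. No listed motif overlapped another in these windows. These matches describe letters in a fixed window. For PAICS the RefSeq gene start (chromosome 4, window from 56410257) lies upstream of the GENCODE start, inside the PPAT gene, so its window does not cover the region shared with PPAT. The RRM2 window lies inside the gene span that GENCODE gives. For TYMS, TK1, DUT and UMPS, the 250 bases before the RefSeq start also reach into the GENCODE gene span. The TYMS word at -39 and the UMPS word at -7 lie inside those spans.

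The values are FPKM, reads scaled by gene length and library total. Whole reads could be recovered from them, and the library totals lay between 30974968 and 40843638, with 7.15% to 9.75% of reads on mitochondrial genes. The members had between 245 and 10105 reads per library. Pseudogenes named for them were nearly silent, with 14 of 22 at 0 in all libraries and none above 0.650 FPKM. The label of the line was checked with markers fixed for it. VIM, a mesenchymal marker, stood at 285 ± 28.8 FPKM (SD, n = 3) in control libraries, and the highest group means of the hormone receptors were 0.00607 FPKM for ESR1 and 0.0140 for PGR, whereas ERBB2 was detected at 8.81 ± 0.376 FPKM (SD, n = 3) in the control. The summed level of the immune markers PTPRC, CD3E and CD68 was at most 0.123 FPKM in any library, with 0 of the 3 at 0 in all libraries. The summed level of 4 luminal epithelial markers was 275.8 to 322.1 FPKM in the control, 216.8 to 257.3 at 10 mM and 214.4 to 231.5 at 20 mM 2-DG, with 0 of the 4 at 0 throughout. Most of this sum was KRT8, at 141, 91.3 and 84.3 FPKM on average, and KRT18, at 150, 137 and 138 with libraries that overlapped. EPCAM (3.75, 3.31 and 2.85 FPKM) and CDH1 (0.365, 0.0493 and 0.0686 FPKM) were low. The summed level of the endothelial markers PECAM1 and VWF was 1.47 to 1.95, 1.12 to 1.45 and 0.854 to 1.05 FPKM. The sums of these lists moved with the treatment, and their part in the results below was not tested. Nothing states that the 3 libraries of a group came from separate cultures, so p-values measure only the spread between these libraries.

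All 5 enzymes of the deoxynucleotide arm fell at both doses of 2-DG. In the de novo arm PAICS and UMPS were lower, and PPAT and CAD did not pass the test. The mean of PPAT was nevertheless at 67.7% of control at 20 mM 2-DG, and that of CAD at 96.6%. By limma's test on log2(FPKM + 1), with Benjamini-Hochberg adjustment over all genes tested and a call at an adjusted p under 0.05, 7 of the 9 members were lower and 0 higher at 10 mM 2-DG against control, where 17.5% of all genes tested were lower and 12.1% higher. At 20 mM 2-DG against control the same test called 7 lower and 0 higher, where 21.6% of all genes tested were lower and 15.4% higher. With the thresholds of the study for a DEG (a log2 fold change over 1 in either direction with an unadjusted p under 0.05), 4 of the 9 were lower at 10 mM and 5 at 20 mM 2-DG, against 1.16% and 1.96% of all genes tested. The control and 10 mM libraries did not overlap for 7 members and the control and 20 mM libraries for 8, all lower with 2-DG, against 22.7% and 29.9% of all genes tested. All members called with the fold threshold belonged to the deoxynucleotide arm. The median log2 fold change was -1.50 at 10 mM and -1.80 at 20 mM 2-DG in that arm, -0.32 and -0.33 in the de novo arm, and -0.01 and -0.02 over all genes tested.

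**Figure D1:**
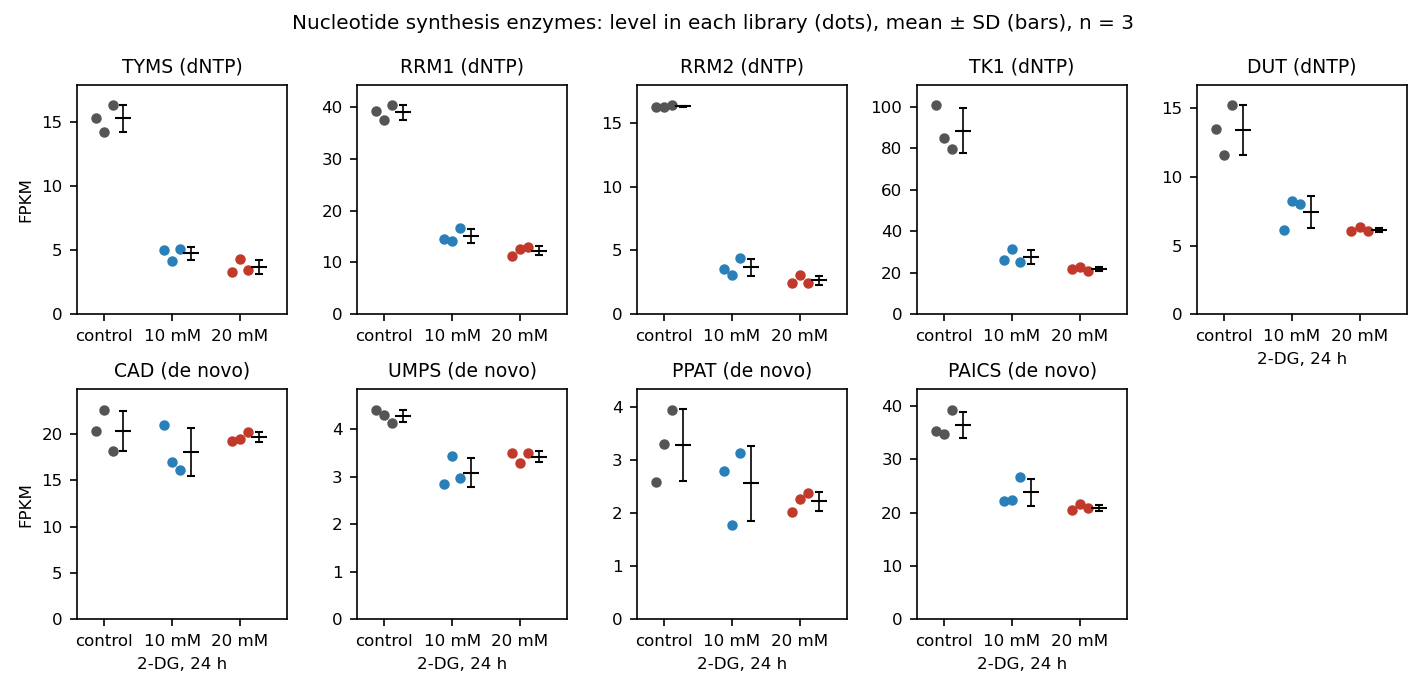
Level of each of the 9 enzymes in FPKM (linear axis from 0, own scale per panel) in the 3 control, 3 10 mM 2-DG and 3 20 mM 2-DG libraries, with dots for libraries and bars for the mean ± SD. The 5 enzymes of the deoxynucleotide arm (upper panels, dNTP) drop to 55.6% of control or less at 10 mM 2-DG, whereas the libraries of CAD overlap among all 3 groups.

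RRM2, the small subunit of ribonucleotide reductase, showed the largest change of the 9. It stood at 16.2, 16.2 and 16.4 FPKM in the control libraries, at 3.53, 3.11 and 4.40 at 10 mM 2-DG and at 2.47, 3.07 and 2.41 at 20 mM 2-DG. The control libraries were nearly alike, with an SD of 0.075 FPKM (n = 3), and the treated libraries of each dose lay far below them, with the doses just apart (3.11 FPKM for the lowest 10 mM library and 3.07 for the highest 20 mM library). The mean fell to 22.6% of control at 10 mM and 16.3% at 20 mM 2-DG, and the log2 fold change of (FPKM + 1) was -1.89 (SE 0.11, adjusted p = 3.40e-06) and -2.25 (SE 0.11, adjusted p = 6.75e-07). In bulk RNA, fewer cells that express a gene and less of its RNA per cell cannot be told apart, which holds for every change described here. The gene length behind the deposited RRM2 values came out at 9153 bases, against 5323 exonic bases in GENCODE 29, so its level relative to other genes depends on the annotation the authors used, while the ratio of its FPKM between groups does not.

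RRM1, the large subunit, fell less than its partner. Its control libraries were at 39.1, 37.5 and 40.3 FPKM, its 10 mM libraries at 14.6, 14.1 and 16.6 and its 20 mM libraries at 11.2, 12.6 and 12.9. The 3 groups did not overlap and lay in the order of the dose. The means of 39.0 ± 1.41, 15.1 ± 1.30 and 12.3 ± 0.890 FPKM (SD, n = 3) put RRM1 at 38.8% and 31.5% of control, with log2 fold changes of -1.31 (SE 0.07, adjusted p = 3.28e-06) and -1.59 (SE 0.07, adjusted p = 6.19e-07). The ratio of RRM1 to RRM2 in FPKM was 2.31 to 2.46 in the control libraries, 3.77 to 4.55 at 10 mM and 4.12 to 5.35 at 20 mM 2-DG. It was thus higher in the treated libraries, without overlap with the control. The size of this ratio rests on the RRM2 length named above, but its shift does not.

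RRM2B, the alternative small subunit that quiescent cells use, did not follow RRM2. It had 1.94, 2.60 and 2.77 FPKM in the control, 2.28, 1.88 and 2.55 with 10 mM and 1.89, 1.87 and 2.33 with 20 mM 2-DG, and the groups overlapped. Its log2 fold change at 20 mM 2-DG was -0.18 (95% interval -0.45 to 0.10, adjusted p = 0.303). The ratio of RRM2B to RRM2 moved from 0.119 to 0.169 in the control libraries to 0.579 to 0.647 at 10 mM and 0.610 to 0.968 at 20 mM 2-DG.

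TYMS, the only de novo source of dTMP, was at 15.3, 14.2 and 16.3 FPKM in the control libraries. It was at 5.03, 4.17 and 5.08 FPKM at 10 mM and at 3.27, 4.34 and 3.49 at 20 mM 2-DG. The control libraries stood far above all treated libraries, and the doses overlapped because the second 20 mM library lay above the lowest 10 mM library. The mean fell to 31.1% of control at 10 mM and 24.2% at 20 mM 2-DG (log2 fold changes -1.50 and -1.80, each with an SE of 0.10, and adjusted p = 9.64e-06 and 1.82e-06). Exons of TYMS overlap those of ENOSF1 on the opposite strand over 967 bases, and those of TYMSOS over 183 bases. Whether counting used the strand is not stated, so reads of these genes cannot be told apart there. ENOSF1 was lower itself, at 2.22, 1.67 and 1.51 FPKM on average, against 15.3, 4.76 and 3.70 for TYMS.

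TK1, the salvage route to the same product, was the most abundant member in the control, with 100.6, 85.1 and 79.6 FPKM. It had 26.1, 31.5 and 25.4 FPKM at 10 mM and 22.0, 22.9 and 20.7 at 20 mM 2-DG. The control spread of 10.9 FPKM (SD, n = 3) around a mean of 88.4 was the widest of the members in FPKM. Relative to the mean, PPAT (3.28 ± 0.682 FPKM) and DUT (13.4 ± 1.82 FPKM) spread more in the control. The lowest control library of TK1 was still above all treated ones, and the doses did not overlap. TK1 fell to 31.3% and 24.7% of control, with log2 fold changes of -1.64 (SE 0.10, adjusted p = 4.90e-06) and -1.96 (SE 0.10, adjusted p = 8.89e-07). The ratio of TK1 to TYMS in FPKM, the salvage against the de novo route to dTMP, had a mean of 5.81 ± 0.855 in the control, 5.92 ± 1.43 with 10 mM and 5.99 ± 0.734 with 20 mM 2-DG (SD, n = 3), and its libraries overlapped among all 3 groups.

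DUT, which clears dUTP, had the smallest change of the arm. Its libraries were at 13.5, 11.6 and 15.2 FPKM in the control, 6.13, 8.22 and 8.03 with 10 mM and 6.05, 6.32 and 6.08 with 20 mM 2-DG. The control lay above both doses, and the doses overlapped. The mean fell to 55.6% and 45.9% of control, and the log2 fold change was -0.77 at 10 mM (SE 0.12, adjusted p = 0.000946) and -1.004 at 20 mM 2-DG (SE 0.12, adjusted p = 0.000135), so DUT only just passed the fold threshold for a DEG at 20 mM 2-DG. That fold call was lost in 6 of 20 alternatives, at -0.953 under median-ratio scaling, -0.918 under upper-quartile scaling and between -0.997 and -0.916 without control replicate 1 or 3 or 20 mM replicate 1 or 3. The adjusted p of DUT stayed under 0.05 in all 20 alternatives tried at each dose, as did that of the other 4 enzymes of the arm.

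**Figure D2:**
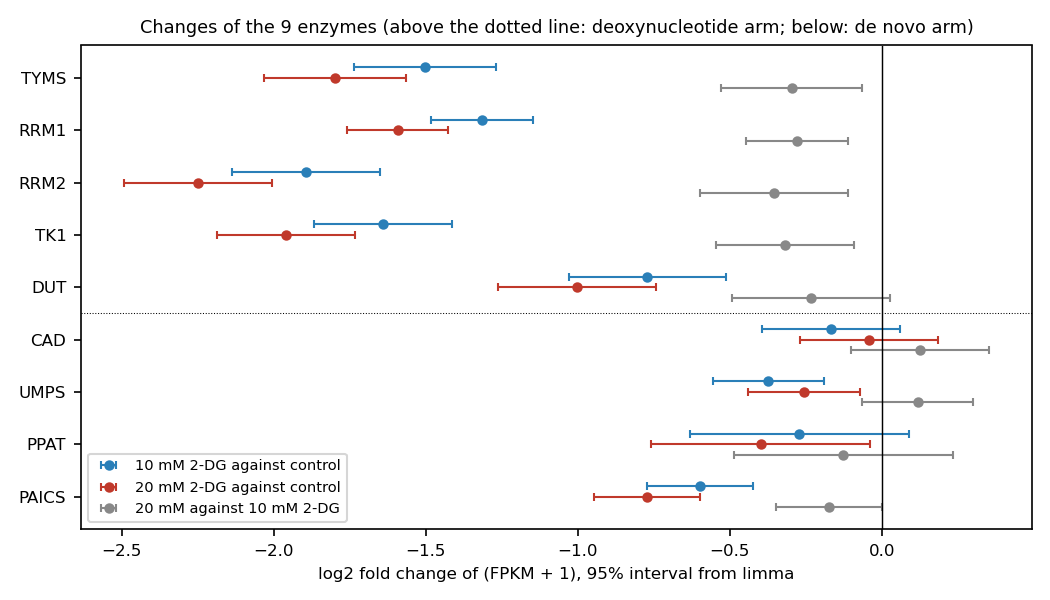
Log2 fold change of (FPKM + 1) with its 95% interval from limma for each of the 9 enzymes in the 3 comparisons. For 10 mM and 20 mM 2-DG against control, the intervals of the 5 deoxynucleotide enzymes lie below -0.51, and those of CAD include 0.

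PAICS, a purine enzyme that joins carbon dioxide and aspartate to the growing ring, was the member of the de novo arm with the largest change. It was at 35.3, 34.8 and 39.2 FPKM in the control libraries, 22.3, 22.4 and 26.7 at 10 mM and 20.4, 21.5 and 20.8 at 20 mM 2-DG. The 3 groups did not overlap, and PAICS was the only de novo member of which this held. Its mean fell to 65.3% and 57.3% of control (log2 fold changes -0.60 and -0.77, SE 0.08 each, adjusted p = 0.000407 and 5.64e-05).

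PPAT, the committing enzyme of purine synthesis and the divergent neighbour of PAICS, was the least abundant member. It had 2.58, 3.32 and 3.95 FPKM in the control, 2.79, 1.77 and 3.13 with 10 mM and 2.03, 2.26 and 2.37 with 20 mM 2-DG. The mean of PPAT was 78.2% of control at 10 mM and 67.7% at 20 mM 2-DG, against 72.0% and 79.9% for UMPS. The 10 mM libraries of PPAT overlapped the control, and its 20 mM libraries lay just below the control. Its log2 fold change was -0.27 at 10 mM (95% interval -0.63 to 0.09, adjusted p = 0.238) and -0.40 at 20 mM 2-DG (95% interval -0.76 to -0.04, adjusted p = 0.0795), so neither passed the test. The value at 20 mM passed in 5 of 20 alternatives, among them without the control library at 2.58 FPKM (-0.52, adjusted p = 0.0408) and without the 10 mM library at 1.77 FPKM (adjusted p = 0.0289), with a range of adjusted p from 0.0289 to 0.243. The ratio of PAICS to PPAT in FPKM was 9.94 to 13.7, 7.96 to 12.6 and 8.76 to 10.04 in the libraries of the 3 groups, which overlapped.

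UMPS, which makes UMP, stood at 4.40, 4.30 and 4.14 FPKM in the control libraries. It was at 2.85, 3.44 and 2.97 FPKM at 10 mM and at 3.49, 3.28 and 3.50 at 20 mM 2-DG. All treated libraries lay below the control, and the mean at 20 mM was not below that at 10 mM. UMPS fell to 72.0% of control at 10 mM (log2 fold change -0.37, SE 0.08, adjusted p = 0.00763) and 79.9% at 20 mM 2-DG (-0.26, SE 0.08, adjusted p = 0.0339). The call at 20 mM was lost in 9 of 20 alternatives, with adjusted p values from 0.0127 to 0.127 over the 20. These 9 were both scalings, a fit with the replicate number as a block, and the omission of any single control or 20 mM library.

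CAD, the enzyme that opens pyrimidine synthesis, was the member with the smallest change. It had 20.3, 22.6 and 18.2 FPKM in the control, 21.0, 17.0 and 16.2 with 10 mM and 19.3, 19.5 and 20.3 with 20 mM 2-DG. The libraries of the 3 groups overlapped, and the means of 20.4 ± 2.18, 18.1 ± 2.60 and 19.7 ± 0.504 FPKM (SD, n = 3) were 88.7% and 96.6% of control. The log2 fold change was -0.17 at 10 mM (95% interval -0.39 to 0.06, adjusted p = 0.245) and -0.04 at 20 mM 2-DG (95% interval -0.27 to 0.18, adjusted p = 0.776), and the latter turned above 0 under median-ratio scaling (0.01), upper-quartile scaling (0.05) and without the second control library (0.03). Without the first 10 mM library, the value at 10 mM was -0.28 with an adjusted p of 0.0385, against 0.0385 to 0.564 over all alternatives. The lower end of the CAD interval at 20 mM 2-DG (-0.27) lay above the upper end of the interval of each deoxynucleotide enzyme, the highest of which was -0.74 for DUT.

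Between 20 mM and 10 mM 2-DG, 0 of the 9 members passed limma's test, and 0 of the 16570 genes tested did (0% lower and 0% higher), with 1140 genes at an unadjusted p under 0.05. Of the members, RRM1, RRM2, TK1 and TYMS had an unadjusted p under 0.05 and were lower at 20 mM, against 4.13% of all genes tested. The log2 fold change was -0.28 for RRM1 (adjusted p = 0.410), -0.35 for RRM2 (adjusted p = 0.486), -0.32 for TK1 (adjusted p = 0.493) and -0.30 for TYMS (adjusted p = 0.571). RRM1, RRM2, TK1 and PAICS had no overlap between the doses and were lower at 20 mM, against 7.14% of all genes tested. DUT (-0.23), PAICS (-0.17) and PPAT (-0.13) were also lower and CAD (0.12) and UMPS (0.12) higher in the mean, each with an adjusted p between 0.723 and 0.970. Their 95% intervals reached from -0.49 for DUT and PPAT to 0.35 for CAD. An alternative fit of the recovered reads with limma-voom also called 0 of all genes.

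The order of the levels changed with 2-DG, and the place of RRM2 in it rests on the gene length behind its values. In the control TK1 was followed by RRM1 and PAICS, whose libraries overlapped, then by CAD, then by RRM2, TYMS and DUT, whose libraries overlapped, then by UMPS and PPAT. At 10 mM 2-DG, TK1 and PAICS overlapped at the top, CAD and RRM1 overlapped below them, DUT followed, and TYMS, RRM2, UMPS and PPAT came last with overlaps between neighbours. At 20 mM 2-DG, TK1 and PAICS overlapped at the top, followed by CAD, RRM1, DUT, TYMS with UMPS, RRM2 and PPAT. The ratio of CAD to RRM1 in FPKM was 0.453 to 0.603 in the control libraries, 0.974 to 1.44 at 10 mM and 1.54 to 1.72 at 20 mM 2-DG. The ratio of PAICS to RRM1 was 0.903 to 0.973, 1.53 to 1.61 and 1.61 to 1.81. CAD and PAICS were below RRM1 in every control library and above it in every 20 mM library.

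The arms were also compared library by library, as the mean difference from the control mean on the log2(FPKM + 1) scale over the enzymes of an arm. For the deoxynucleotide arm it was -1.49, -1.44 and -1.34 in the 10 mM libraries and -1.79, -1.62 and -1.75 in the 20 mM libraries. For the de novo arm it was -0.31, -0.45 and -0.30 at 10 mM and -0.40, -0.37 and -0.34 at 20 mM 2-DG. The arms therefore stood apart in each treated library, and the control libraries of both arms lay between -0.08 and 0.04. The 26 replication genes used for comparison (the MCM helicase, GINS, CDC45, polymerases, clamp and clamp loader) lay between the arms, at -0.81, -0.78 and -0.71 at 10 mM and -0.95, -0.89 and -0.93 at 20 mM 2-DG. Of these 26, limma's test called 25 lower and 0 higher at either dose. Of all genes tested, 17.5% were lower at 10 mM and 21.6% at 20 mM 2-DG. On the log2(FPKM + 1) scale the helicase genes MCM6 and CDC45 had the largest changes of this list at 20 mM 2-DG, with -1.35 each (adjusted p = 7.07e-07 and 4.44e-06). In mean FPKM, which does not shrink low genes, the order differed. PRIM1, GINS1 and GINS2, named after their values were seen, were at 22.7%, 27.4% and 32.2% of control at 20 mM 2-DG, against 36.1% for MCM6 and 35.9% for CDC45. PRIM1 thus lay below TYMS, TK1 and RRM1 on this scale, and RRM2, at 16.3%, lay below all 26. Differences between genes were not tested.

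The other genes of nucleotide metabolism were taken from a list of 47 genes, all of which were tested. At 10 mM 2-DG against control 15 of them were lower and 5 higher, against 17.5% and 12.1% of all genes tested. At 20 mM 2-DG 19 were lower, 8 higher and 20 did not pass, against 21.6% lower and 15.4% higher of all genes tested. The counts of higher genes were near these shares, and the same shares apply to the counts by role below. The median log2 fold change of the 47 genes at 20 mM was -0.18. Between the doses 0 of the 47 passed limma's test, with 1 at an unadjusted p under 0.05. Of those called at 20 mM 2-DG, HPRT1 was lower and SHMT2 higher by more than the fold threshold on the log2(FPKM + 1) scale. In mean FPKM, ADA, named after its values were seen, was at 44.3% of control at 20 mM 2-DG, against 44.9% for HPRT1. The level of ADA was low, at 0.325 FPKM in the control.

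Among 11 other enzymes of deoxynucleotide supply and removal, 5 were lower and 2 higher at 20 mM 2-DG. DTYMK, which phosphorylates the product of TYMS and TK1 to dTDP, fell from 40.0 ± 2.16 FPKM to 21.3 ± 3.50 at 10 mM and 20.3 ± 0.288 at 20 mM 2-DG (SD, n = 3), a log2 fold change of -0.94 (adjusted p = 6.35e-05) at 20 mM. DCK, the deoxycytidine kinase, fell by 0.81 on the log2 scale (adjusted p = 0.00170). NT5C, a nucleotidase that breaks down deoxynucleotides, and DCTD, which makes dUMP from dCMP, rose by 0.39 and 0.23 (adjusted p = 0.00460 and 0.00850). On the log2(FPKM + 1) scale 0 of these 11 reached the fold threshold at 20 mM 2-DG. This scale understates the change of low genes, and in mean FPKM DCK was at 48.1% of control, close to the 45.9% of DUT.

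Next to CAD and UMPS, 3 of 5 genes of pyrimidine and CTP synthesis were lower at 20 mM 2-DG and 0 higher. DHODH, the mitochondrial step between CAD and UMPS, had a mean of 1.26 ± 0.0399 FPKM in control libraries and 0.776 ± 0.0749 and 0.859 ± 0.0971 at 10 mM and 20 mM 2-DG (SD, n = 3; log2 fold change at 20 mM -0.28, adjusted p = 0.0110). CTPS1 and CTPS2, which make CTP from the UTP that follows UMPS, fell by 0.54 and 0.46 (adjusted p = 0.000247 and 0.00537). Next to PPAT and PAICS, 5 of 13 purine genes were lower and 0 higher. PRPS2 and PRPS1, which make the ribose phosphate that PPAT uses, fell by 0.87 and 0.63 (adjusted p = 0.000195 and 0.000110).

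The folate enzymes that supply one-carbon units to TYMS and to the purine ring went in both directions. At 20 mM 2-DG, 2 of 6 were lower and 4 higher, and at 10 mM 1 was lower and 3 higher. SHMT2, the mitochondrial serine hydroxymethyltransferase, had 82.7, 77.5 and 74.8 FPKM in the control, 169.6, 187.7 and 166.4 with 10 mM and 187, 186 and 187 with 20 mM 2-DG. It rose by 1.25 on the log2 scale (adjusted p = 8.40e-07), the largest rise of the 47 genes. MTHFD1, the cytosolic enzyme that interconverts folate one-carbon units, fell by 0.74 (adjusted p = 1.30e-05), and its mitochondrial relative MTHFD2 rose by 0.70 (adjusted p = 0.000223).

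The folate genes were then grouped by the compartment of the enzyme, a grouping made after their values had been seen. The 2 cytosolic genes (SHMT1, MTHFD1) were both lower at 20 mM 2-DG, with SHMT1 at -0.30 (adjusted p = 0.0289). The call of SHMT1 was lost under both scalings (adjusted p = 0.0656 and 0.0925). The 4 mitochondrial genes (SHMT2, MTHFD2, MTHFD1L, MTHFD2L) were all higher, with MTHFD1L at 0.64 (adjusted p = 4.04e-05) and MTHFD2L at 0.32 (adjusted p = 0.00721).

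**Figure D3:**
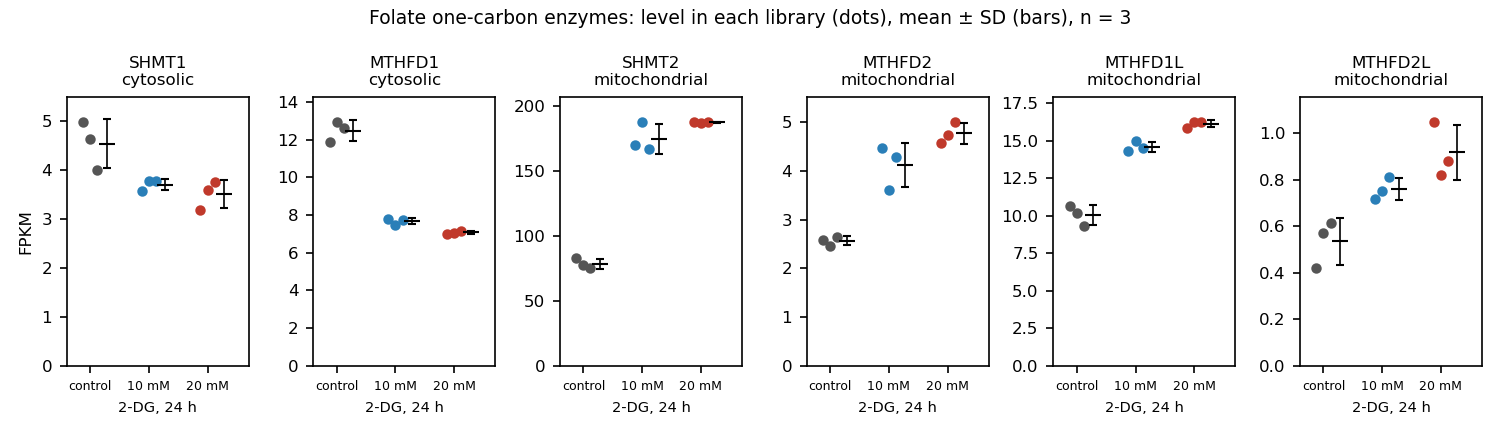
Level in FPKM (linear axis from 0, own scale per panel) of 6 folate one-carbon enzymes in each library of the 3 groups, with dots for libraries and bars for the mean ± SD. The 2 cytosolic genes are lower in the 20 mM 2-DG libraries than in the control and the 4 mitochondrial genes are higher, with SHMT2 going from 78.3 to 187.1 FPKM on average.

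Salvage enzymes, which recycle bases and nucleosides, gave 4 lower and 2 higher of 9 at 20 mM 2-DG. HPRT1, which returns hypoxanthine and guanine to the nucleotide pool, fell from 18.6 ± 1.64 FPKM to 8.66 ± 0.836 and 8.35 ± 0.147 (SD, n = 3; log2 fold change at 20 mM -1.06, adjusted p = 1.10e-05), and the uridine kinase UCK2 fell by 0.46 (adjusted p = 0.000275). UPP1, which splits uridine into uracil and ribose phosphate, rose from 33.0 ± 2.05 FPKM to 51.8 ± 5.74 and 58.8 ± 5.84 (SD, n = 3; 0.81, adjusted p = 0.000145). PNP, which splits purine nucleosides in the same manner, rose by 0.40 (adjusted p = 0.000366). Of 3 other nucleotide kinases (NME1, NME2 and GUK1), 0 passed limma's test at 20 mM 2-DG, with 1 at an unadjusted p under 0.05.

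**Figure D4:**
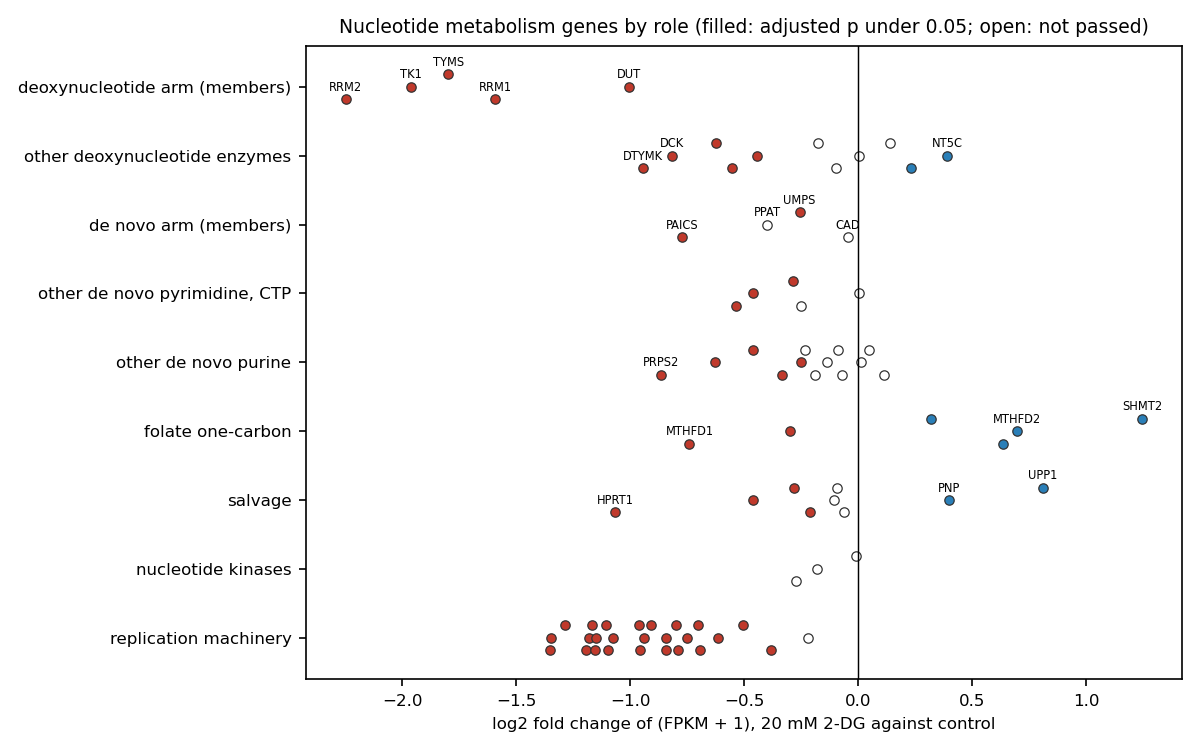
Log2 fold change of (FPKM + 1) at 20 mM 2-DG against control for the 9 enzymes, the 47 other nucleotide genes by role and 26 replication genes, with filled points for genes with an adjusted p under 0.05 and open points for the others. RRM2, TK1, TYMS and RRM1 lie farthest to the left, and SHMT2 farthest to the right at 1.25.

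The genes with the profile most like the deoxynucleotide arm over the 9 libraries were TPX2 (Pearson r = 0.999), CCNB2 (0.998), UBE2T (0.997), CDCA3 (0.997) and MAD2L1 (0.997), out of 6012 named genes with a mean of at least 5 FPKM. For the de novo arm they were MYH9 (0.990), TNPO2 (0.988), GALNT2 (0.987), CSTF2T (0.987) and F3 (0.986). Likeness was the correlation with the arm's mean standardised log2(FPKM + 1), and the 9 points were 3 libraries each of 3 groups from the same experiment. With the mean of the deoxynucleotide arm, its own members had an r of 0.973 to 0.997, and the de novo members PAICS, UMPS, PPAT and CAD had 0.983, 0.827, 0.670 and 0.234. With the mean of the de novo arm, its own members had an r of 0.544 to 0.887, while RRM2, TYMS and RRM1 had 0.933, 0.932 and 0.929. The deoxynucleotide profile thus set its members apart from UMPS, PPAT and CAD but not from PAICS. The de novo profile did not set its own members apart. Each member was part of the mean of its own arm, which raises its r with that mean.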

How the data were processed

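Deposited expression values of MDA-MB-231 cells were analysed for 3 groups of 3 libraries, grouped by the 2-DG dose in the labels. Total RNA was extracted with a Rneasy kit, and mRNA libraries (SMARTER kit) were run on an Illumina NovaSeq. The authors deposited FPKM values per library, with the build GRCh38 (hg38) in the submitters' processing notes. Aligner, counting tool, strand use and annotation release are not given in the sources used here. The study called DEGs with DESeq2, which needs counts and was not used here.

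Whole reads were recovered for 32806 of 32806 genes above 0 (tolerance 0.01), with library totals found from GENCODE 29 exon lengths and gene lengths found from the values, 50.6% of genes being whole at the GENCODE 29 length. For the others, the first length that gave whole reads was taken, which genes above 0 in few libraries can meet by chance. A gene was tested if it had 10 reads or more in 3 libraries or more, scaled to the median depth, and 15 or more over the series. The test was limma 3.58.1 (R 4.3.3, trend) on log2(FPKM + 1), which understates changes of low genes. All 9 libraries entered one fit without a replicate block, and p-values were adjusted by Benjamini-Hochberg over 16570 genes. The fit was tested on simulated data. Replicates correlated at 0.989 to 0.996, and none was a duplicate of another. They were least alike at 10 mM 2-DG (0.9889 to 0.9938) and most alike at 20 mM (0.9957 to 0.9961). The fit used 1 shared estimate of the spread for the 3 groups, although their spread differed.

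The members and lists were chosen with earlier results of these data known. Named genes were the members, per role and direction up to 2 list genes with the largest change at 20 mM 2-DG that passed the test, and RRM2B, DHODH, DTYMK, CTPS1, MTHFD2, SHMT2 and UCK2 whatever their values. Some genes of the lists are not reported here. The alternatives varied the pseudocount, filter, scaling, fit, threshold and libraries.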

Additional observations from a re-analysis of the deposited data

How the results depend on the processing

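Over 20 alternatives for each of the 9 enzymes and 3 comparisons, 522 values kept their direction and their side of the threshold, 9 lost and 6 gained the call, and 3 turned sign. The 3 were CAD at 20 mM 2-DG against control, at 0.0097 under median-ratio scaling, 0.048 under upper-quartile scaling and 0.030 without the second control library (-0.117 to 0.030 over the fits without single libraries). The 9 lost calls were all those of UMPS at 20 mM 2-DG. The causes were not tested. Without single libraries, 7 to 8 members were lower at 10 mM and 6 to 8 at 20 mM 2-DG. With the thresholds of the study, 4 members were lower at 10 mM 2-DG, of the 47 other nucleotide genes 1 was lower and 1 higher at 10 mM and 1 lower and 1 higher at 20 mM, and of all genes 192 were lower and 96 higher at 10 mM and 324 lower and 160 higher at 20 mM, with 1 higher between the doses. These thresholds call fewer genes because they ask for a larger change. Under upper-quartile scaling 8 of the 47 were higher at 10 mM 2-DG, and of all called genes 51.6% at 10 mM and 54.1% at 20 mM were higher, against 40.9% and 41.5% in the values reported. Between the doses, 3 of all genes were lower with no filter, and without single libraries 0 to 3 were lower and 0 to 1 higher, the nonzero counts arising without the first 10 mM library. Libraries with the same number did not deviate together (correlations of -0.406 to 0.293 over 9 pairs), so the numbers were not taken as a pairing. With the replicate number as a block, 7 members were lower at 10 mM and 6 at 20 mM 2-DG, where UMPS (-0.26, adjusted p = 0.0667) did not pass. With 3 libraries per group, differences between the doses of the size seen here did not pass the test.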

Other observations

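Of the 47 other nucleotide genes, CMPK2, ADSL, ADSSL1, MTHFD2L and ADA, named here after their values were seen, had a control mean under 1 FPKM. ADSL, which acts after PAICS in purine synthesis, was listed at 0.457 ± 0.0456 FPKM in control cells, 0.376 ± 0.0283 with 10 mM and 0.471 ± 0.0612 with 20 mM 2-DG (SD, n = 3), against 36.5, 23.8 and 20.9 FPKM for PAICS. As for RRM2, a level relative to other genes depends on the annotation and counting the authors used, which are not given. Whether these account for the low value of ADSL was not tested.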
